A study of Mus musculus with 12 samples.

Results

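Nfe2l2, Hmox1, Nqo1, Gclc, Gclm, Srxn1, Txnrd1, Prdx1, Sod2 and Cat are 10 genes of the NRF2 and oxidative stress response. They were picked by name for what they are known to do, but with earlier results of these data known. They are 10 of the 43626 genes listed in each count table, and all 10 were among the 14308 genes with enough reads to be tested. Mouse bone marrow–derived macrophages (BMDMs), which are macrophages grown in culture from marrow precursors, were left quiescent in PBS, given the human milk oligosaccharide 3′-sialyllactose (3′SL, written HMO in the labels), given lipopolysaccharide (LPS), or given LPS and 3′SL together. Each condition had 3 libraries of polyA mRNA, 12 in all. By the study's methods LPS was at 10 ng/mL, 3′SL was at 100 μg/mL, and the exposure lasted 6 hours. The labels give no strain, age or sex for the cells and no statement that the 3 libraries of a condition came from separate mice, so p-values measure the spread between these libraries.

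NRF2, the protein made from Nfe2l2, is a transcription factor that KEAP1 holds in the cytoplasm and marks for degradation. Oxidants and electrophiles modify KEAP1, after which NRF2 enters the nucleus, pairs with small MAF proteins and binds antioxidant response elements (AREs). Its classical targets break down haem and quinones, make glutathione, and return oxidised thioredoxin and peroxiredoxins to their working form. LPS, which signals through TLR4 and NF-κB, makes macrophages produce superoxide and nitric oxide, and mitochondrial superoxide dismutase is a long-known NF-κB target in them.

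The libraries held between 20411741 and 26851890 reads on genes, and single members were counted between 32 (Nqo1) and 278139 (Hmox1) times in a library, so counting error was small for all members but Nqo1. The sample titles carry running numbers, and each run of 4 consecutive numbers holds 1 library of every condition. These runs are called library sets 1, 2 and 3 here; no label says what the libraries of a set shared. After the condition means were removed, libraries of the same set correlated by 0.656 on average, and libraries of different sets by -0.366. Removing the mean of 3 libraries makes the second value negative whenever the first is positive, so it is no separate result. The 3′SL library of set 3 stood apart for the members: all 10 were above both other 3′SL libraries, by 1.33 to 8.38 times the higher of them. The PBS library of set 3 was above both other PBS libraries for 8 members, by a median of 1.74 times over all 10. That 3′SL library also had the largest share of reads not aligned (2.16%), with 1.91% in the PBS library of set 2. Its share of reads outside genes (5.89%) was also the largest of the 12. The LPS and LPS + 3′SL libraries of set 3 were close to it, at 5.76% and 5.81%. All 8 macrophage markers passed the filter, and their summed level was 17640 to 30044 CPM. Summed stromal markers were 506 to 581 CPM in set 1 against 21.4 to 31.9 CPM in set 2 and 50.3 to 85.0 CPM in set 3. Summed neutrophil markers were at most 267 CPM. The T cell genes Cd3e and Cd3g were at 0 in all libraries. Cd3d was also at 0 in every library given 3′SL, LPS or both, where the T cell sum was that of Lck alone. The summed level of the 4 T cell markers was 1.42 to 3.62 CPM with LPS and 1.47 to 3.54 CPM with both. It was 0.135 to 0.386 CPM with PBS and 0 to 0.0795 CPM with 3′SL. The part of these values in the members' levels was not tested, and fewer cells of a type and less RNA per cell cannot be told apart in bulk RNA.

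RefSeq promoter windows on GRCm38.p6, running from 250 bases before a transcription start to 50 after it, were matched for 8 of the 10 members, in 10 windows. The letters TGACNNNGC, the core of the ARE, were searched on both strands and found in 5 of the 10 member windows, those of Nfe2l2, Gclm, Srxn1, Txnrd1 and Prdx1. The same letters occur in 12.4% of all 32851 windows. The AP-1 letters TGANTCA were found in windows of 2 members, Srxn1 and Prdx1, against 7.81% of all windows. The ARE core matches of Nfe2l2, Gclm, Txnrd1 and Prdx1 are shown because NRF2 recognises such letters in its own gene and in its targets. Also shown is 1 of the Srxn1 matches to AP-1, whose letters can lie inside an ARE. This AP-1 match does not overlap the ARE match of Srxn1, which lies at 28 after the start and is not shown. Capitals mark the match, each sequence reads 5′ to 3′ on the gene's own strand, and a minus sign gives the bases before the start. In Gclm, Txnrd1 and Prdx1 the ARE letters lie on the other strand, so that the capitals are their reverse complement. A match of letters is a description of the window and not a measured binding site.
Nfe2l2, chr2:75704870-75704913, minus strand, match at -240: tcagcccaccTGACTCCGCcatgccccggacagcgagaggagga
Gclm, chr3:122245398-122245456, plus strand, match at -134: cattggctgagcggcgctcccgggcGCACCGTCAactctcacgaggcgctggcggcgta
Txnrd1, chr10:82859089-82859147, plus strand, match at -92 of its second window: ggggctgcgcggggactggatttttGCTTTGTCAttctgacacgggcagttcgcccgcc
Prdx1, chr4:116685441-116685499, plus strand, match at -133: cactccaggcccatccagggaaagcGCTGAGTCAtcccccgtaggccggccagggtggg
Srxn1 AP-1, chr2:152105454-152105510, plus strand, match at -45: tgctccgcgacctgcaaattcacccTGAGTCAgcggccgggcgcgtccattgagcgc
In the Prdx1 window an AP-1 match at -131 overlapped the ARE match.

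Levels are given as CPM, read counts scaled to the library's total on genes and by TMM factors, and between genes as CPM per kilobase of exon. In quiescent BMDMs, Hmox1 had the highest level of the 10 at 931 ± 535 CPM per kilobase (SD, n = 3), followed by Prdx1 at 408 ± 111. Cat stood at 110 ± 8.41, Srxn1 at 80.5 ± 40.4, Nfe2l2 at 61.3 ± 3.20 and Txnrd1 at 52.7 ± 23.8 CPM per kilobase, and each of these overlapped its neighbour in the order. Gclm at 22.6 ± 13.2 and Gclc at 20.7 ± 9.01 CPM per kilobase overlapped each other. Sod2 at 6.25 ± 1.45 and Nqo1 at 1.55 ± 0.195 CPM per kilobase were the lowest, and neither overlapped another member. With LPS, Sod2 reached 131 ± 30.2 CPM per kilobase, the third highest of the 10 after Hmox1 at 1451 ± 371 and Prdx1 at 890 ± 124.

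**Figure D1:**
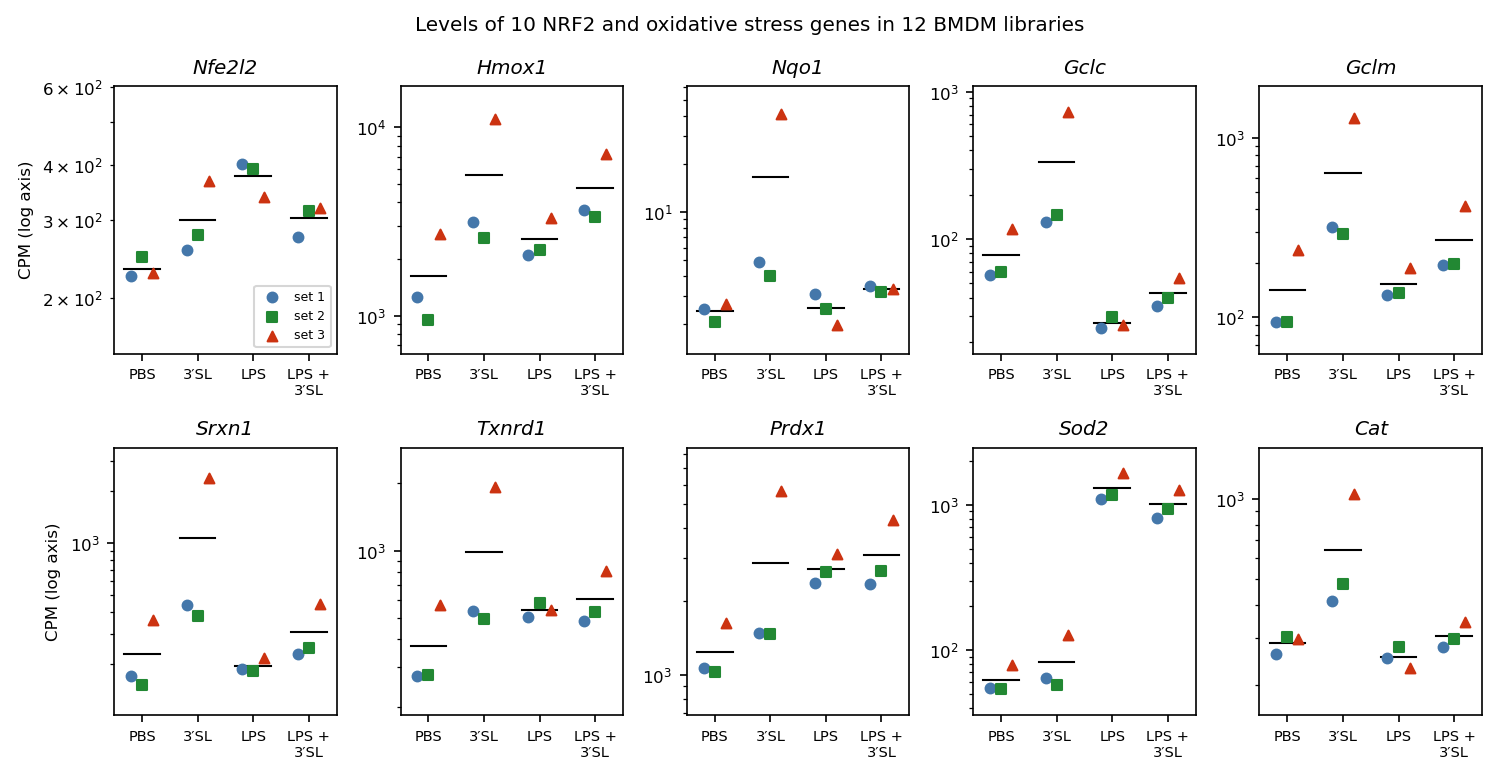
CPM of the 10 members in the 12 libraries (log axes, 1 panel per gene), by condition; the marker shows the library set (circle 1, square 2, triangle 3) and the bar the mean of 3 libraries. The triangle lies above both other points in the 3′SL column of all 10 panels, for Nqo1 at 40.8 CPM against 4.87 and 4.02, and Sod2 is at 816 CPM or more in every library with LPS.

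The number of members called with LPS depended on the fit, and the largest change was that of Sod2. A gene was called when edgeR's quasi-likelihood test gave a Benjamini-Hochberg adjusted p under 0.05 over all 14308 genes and the change was at least 1.5-fold. LPS against PBS called 2 of the 10, Sod2 and Nfe2l2, both higher, where 38.5% of all genes were called, 18.3% higher and 20.2% lower. With the library set as a block it called 5 of 10 (44.6% of all genes): Nfe2l2, Hmox1, Prdx1 and Sod2 higher and Gclc lower. In cells given 3′SL, adding LPS called 4 of 10 (29.2% of all genes), Sod2 higher (14.3% of all genes called higher) and Nqo1, Gclc and Cat lower (14.8% called lower), and 6 of 10 with the block (35.8% of all genes), Gclm and Srxn1 being lower as well. The median change of all genes was -0.06 on the log2 scale for LPS against PBS after TMM scaling and -0.71 after scaling to total counts. Total counts called Sod2 higher (10.7% of all genes called higher) and Gclc and Cat lower (46.5% called lower). Signs that turned with total counts are given beside each gene.

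3′SL alone came with higher levels of all 10 members, without an edgeR call over the 12 libraries unless the library set was a block. All 10 had a fitted log2 fold change above 0 against PBS, with a median of 1.59 beside 0.0013 for all genes, and all 10 were higher in each of the 3 library sets, which held for 25.8% of all genes. For 6 of them, Nfe2l2, Nqo1, Gclc, Gclm, Srxn1 and Cat, the 3 libraries with 3′SL all lay above the 3 with PBS, against 9.02% of all genes. edgeR called 0 of 10 (0% of all genes in either direction), with adjusted p from 0.272 to 0.718. In the same test 9 of 10 had an unadjusted p under 0.05, beside 1439 of all 14308 genes. DESeq2's Wald test called Gclc, Gclm and Cat (3 of 10, 0.468% of all genes called higher) and returned no p-value for Nqo1 and Srxn1. With the library set as a block edgeR called 7 of 10 (1.98% of all genes called higher): Hmox1, Gclc, Gclm, Srxn1, Txnrd1, Prdx1 and Cat.

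Nfe2l2 (ENSMUSG00000015839.6; GRCm38 chr2:75675513-75704641, minus strand), which encodes NRF2, was higher with LPS and with 3′SL but not highest with both. In library sets 1, 2 and 3 its level was 224, 247 and 227 CPM with PBS, 256, 277 and 367 CPM with 3′SL, 401, 390 and 339 CPM with LPS, and 274, 314 and 319 CPM with LPS and 3′SL. All LPS libraries lay above all PBS libraries, and all LPS + 3′SL libraries lay below all LPS libraries. Nfe2l2 rose with LPS by 0.70 ± 0.14 on the log2 scale (SE; edgeR's quasi-likelihood test, adjusted p = 0.00210), and scaled to total counts the difference was 0.05 and not called. Without library set 2 it was 0.71 and not called. Against LPS alone the difference with added 3′SL was -0.32 ± 0.14 (adjusted p = 0.708), and against PBS the difference with 3′SL was 0.37 ± 0.14 (adjusted p = 0.447). Between LPS + 3′SL and 3′SL alone the difference was 0.01, with a 95% interval of -0.30 to 0.32, and -0.46 under total counts.

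Hmox1 and Nqo1 act on haem and quinones. Hmox1 (ENSMUSG00000005413.7; chr8:75093621-75100589, plus strand) encodes haem oxygenase, which cleaves haem to biliverdin, iron and carbon monoxide. Its level was 1249, 943 and 2697 CPM with PBS in sets 1, 2 and 3, 3155, 2580 and 11059 CPM with 3′SL, 2103, 2233 and 3288 CPM with LPS, and 3625, 3341 and 7256 CPM with both. Each 3′SL library was above the PBS library of its own set, by 1.34, 1.45 and 2.04 on the log2 scale, although the 2580 CPM of set 2 lay below the 2697 CPM of the PBS library of set 3. The fitted difference was 1.78 ± 0.59 (adjusted p = 0.388), and 1.64 ± 0.22 with the library set block (edgeR, adjusted p = 0.00436). With LPS present the 3 libraries given 3′SL all exceeded the 3 without it, by 0.90 ± 0.58 (adjusted p = 0.914, with the block 0.0893). LPS alone gave 0.64 ± 0.58 (adjusted p = 0.398), 0.79 ± 0.22 with the block (adjusted p = 0.00825), and -0.02 under total counts.

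Nqo1 (ENSMUSG00000003849.8; chr8:107388225-107403206, minus strand), a quinone reductase often used as a readout of NRF2, was the scarcest member. It stood at 2.47, 2.07 and 2.66 CPM with PBS, at 4.87, 4.02 and 40.8 CPM with 3′SL, at 3.08, 2.47 and 1.96 CPM with LPS and at 3.45, 3.17 and 3.32 CPM with both. All 3 libraries with 3′SL were above all 9 others, but the value in set 3 was 8.38 times the higher of the other 3′SL libraries. The log2 fold change of 3′SL against PBS was 2.78 ± 0.74 (adjusted p = 0.327), of which 0.98, 0.96 and 3.94 were the changes within sets 1, 2 and 3. LPS against PBS gave 0.06 ± 0.73 (edgeR, adjusted p = 0.957), and -0.57 under total counts. Adding LPS to 3′SL gave a fall of Nqo1 by 2.32 ± 0.73 (edgeR, adjusted p = 0.0298). Without the 3′SL library of set 3 that difference was -0.40 and not called, and the call was also lost when any 1 of the LPS + 3′SL libraries was left out, at -2.35 to -2.29.

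Gclc and Gclm encode the catalytic and the modifier subunit of glutamate-cysteine ligase, the rate-limiting enzyme of glutathione synthesis. Gclc (ENSMUSG00000032350.8; chr9:77754535-77794485, plus strand) stood at 56.7, 60.0 and 117 CPM with PBS and at 130, 145 and 729 CPM with 3′SL. With LPS it was at 25, 29.7 and 26.2 CPM, and with both at 34.9, 39.7 and 54.3 CPM. Every LPS library was below every PBS library, and every library with LPS and 3′SL was below every 3′SL library but above every LPS library. The difference with LPS was -1.53 ± 0.59 (edgeR, adjusted p = 0.0521), just above the threshold of 0.05, and -1.38 ± 0.38 with the block (adjusted p = 0.00868). Adding LPS to 3′SL lowered Gclc 7.80-fold, by -2.96 ± 0.61 on the log2 scale (adjusted p = 0.00314). Within sets 1, 2 and 3 that difference was -1.90, -1.87 and -3.75, and without the 3′SL library of set 3 it was -1.67 and still called by edgeR. 3′SL against PBS gave 2.10 ± 0.59 (adjusted p = 0.330, with the block 0.0209), and 3′SL added to LPS gave 0.67 ± 0.58 (adjusted p = 1).

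Gclm (ENSMUSG00000028124.11; chr3:122245557-122270732, plus strand) had 94.1, 94.4 and 238 CPM with PBS, 318, 292 and 1299 CPM with 3′SL, 133, 137 and 189 CPM with LPS and 195, 199 and 418 CPM with both. The 3′SL libraries were above the PBS libraries without overlap, as were the LPS + 3′SL libraries over the LPS libraries, while LPS and PBS libraries overlapped. Its log2 fold change with 3′SL was 2.16 ± 0.61 (adjusted p = 0.331) and 2.00 ± 0.25 with the block (edgeR, adjusted p = 0.00329), and with 3′SL added to LPS it was 0.82 ± 0.59 (adjusted p = 0.966, with the block 0.18). LPS against PBS gave 0.11, with an interval of -1.18 to 1.40, and the sign was lost under total counts (-0.55) and without either of library sets 1 and 2. The gene overlaps Gm17494 on the other strand and Gm6061 on the same strand, and 4.58% of its 50-base exon words occur in other genes.

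Srxn1, Txnrd1 and Prdx1 work in 1 cycle: the peroxiredoxin PRDX1 reduces peroxides, thioredoxin and its reductase TXNRD1 return it to the reduced form, and sulfiredoxin SRXN1 rescues the over-oxidised form. Srxn1 (ENSMUSG00000032802.8; chr2:152105516-152111376, plus strand) was at 171, 152 and 358 CPM with PBS, 436, 377 and 2383 CPM with 3′SL, 188, 183 and 217 CPM with LPS and 228, 247 and 445 CPM with both. It had no overlap between 3′SL and PBS or between LPS + 3′SL and LPS. Its difference was 2.23 ± 0.66 with 3′SL alone (adjusted p = 0.342, with the block 0.0145), 0.65 ± 0.63 with 3′SL added to LPS (adjusted p = 1), and -0.21 ± 0.63 with LPS (adjusted p = 0.820; above 0 at 0.21 without set 3). LPS added to 3′SL gave -1.80 ± 0.65 (edgeR, adjusted p = 0.0505), and -1.45 ± 0.36 with the block (adjusted p = 0.00576).

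Txnrd1 (ENSMUSG00000020250.9; chr10:82833951-82897712, plus strand) was at 275, 278 and 568 CPM with PBS, 535, 495 and 1932 CPM with 3′SL, 504, 582 and 542 CPM with LPS and 483, 532 and 810 CPM with both. In sets 1 and 2 the 3 treatments lay close together and above PBS, whereas in set 3 the PBS library was as high as the LPS library. The change with 3′SL was 1.40 ± 0.50 (adjusted p = 0.420, edgeR with the block 1.26 ± 0.29, adjusted p = 0.0313). 3′SL added to LPS gave 0.16 with an interval of -0.91 to 1.24, and LPS against PBS 0.54 ± 0.49 (adjusted p = 0.404, and -0.10 under total counts).

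Prdx1 (ENSMUSG00000028691.8; chr4:116685544-116700822, plus strand) was among the more abundant members, at 1062, 1028 and 1632 CPM with PBS, 1484, 1476 and 5679 CPM with 3′SL, 2377, 2629 and 3120 CPM with LPS and 2356, 2658 and 4301 CPM with both. Its LPS libraries lay above all PBS libraries, by 1.13 ± 0.48 (adjusted p = 0.0792, edgeR with the block 1.17 ± 0.26, adjusted p = 0.00225). With 3′SL alone the difference was 1.21 ± 0.49 (adjusted p = 0.462, with the block 0.0488), and 3′SL added to LPS gave 0.20 ± 0.48 (adjusted p = 1). LPS added to 3′SL gave 0.11 ± 0.48 (edgeR, adjusted p = 0.898), and -0.35 under total counts. Of its 50-base exon words 8.81% occur in other genes, Gm21399 and Gm7204 among them, and the effect of this on its count was not measured.

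Sod2 and Cat remove superoxide and hydrogen peroxide. Sod2 (ENSMUSG00000006818.4; chr17:13006846-13040063, plus strand), the mitochondrial manganese superoxide dismutase, had the largest response to LPS of the members. It was at 54.9, 53.4 and 79.3 CPM with PBS, 64.4, 57.7 and 126 CPM with 3′SL, 1095, 1178 and 1656 CPM with LPS and 816, 934 and 1270 CPM with both. Sod2 rose 20.9-fold with LPS, by 4.39 ± 0.35 (edgeR, adjusted p = 4.44e-06), and 12.2-fold when LPS was added to 3′SL, by 3.61 ± 0.34 (adjusted p = 2.12e-05). In each set the library with both was below the LPS library, by -0.42, -0.34 and -0.38, but the conditions overlapped and the fitted difference of -0.38 ± 0.31 was not called (adjusted p = 1, with the block 0.133). 3′SL against PBS gave 0.40 ± 0.31 (adjusted p = 0.718). Of its exon words 21.0% occur in other genes. Reads matching no single place were not counted, and the effect of this on the Sod2 count was not measured.

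Cat (ENSMUSG00000027187.6; chr2:103453849-103485160, minus strand) encodes catalase, which breaks down hydrogen peroxide in peroxisomes. It was at 262, 302 and 297 CPM with PBS, 414, 478 and 1043 CPM with 3′SL, 253, 279 and 231 CPM with LPS and 277, 297 and 344 CPM with both. The 3 libraries with 3′SL alone were above the 9 others. The difference from PBS was 1.17 ± 0.29 (adjusted p = 0.272, edgeR with the block 1.10 ± 0.23, adjusted p = 0.0230). Cat fell by 1.07 ± 0.29 when LPS was added to 3′SL (edgeR, adjusted p = 0.0134), and that difference was -0.53 and not called without the 3′SL library of set 3. LPS against PBS gave -0.18 ± 0.28 (adjusted p = 0.658), and total counts called it at -0.82, where 46.5% of all genes were called lower.

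**Figure D2:**
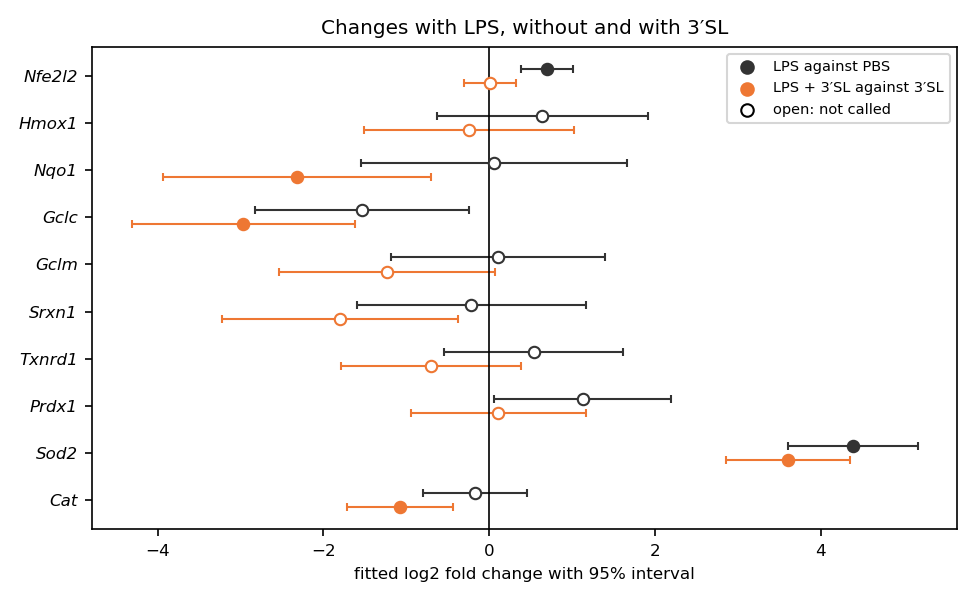
Fitted log2 fold changes of the 10 members for LPS against PBS (dark) and LPS + 3′SL against 3′SL (orange), with 95% intervals of the model; filled points were called. Sod2 lies at 4.39 and 3.61, and Nqo1, Gclc and Cat are called below 0 only for LPS added to 3′SL.

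The size of the 3′SL difference without LPS depended on library set 3. Within sets 1, 2 and 3 the median log2 ratio of 3′SL to PBS over the members was 0.97, 0.90 and 1.92, while the median absolute ratio over all genes was 0.206, 0.195 and 0.341. Gclm had the largest ratio in sets 1 and 2 at 1.76 and 1.63, and Nqo1 in set 3 at 3.94. Sod2 and Nfe2l2 had the smallest, from 0.11 to 0.69. Without the 3′SL library of set 3 the median over the members was 0.69, 9 of 10 were above 0 (Sod2 was at -0.07) and edgeR called 0, with 4 at an unadjusted p under 0.05.

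Without library set 3 edgeR called 6 of 10 for 3′SL against PBS (0.507% of all genes called higher), namely Hmox1, Gclc, Gclm, Srxn1, Txnrd1 and Cat. Their log2 fold changes were then 1.37, 1.22, 1.67, 1.31, 0.88 and 0.64, and the median over all 10 was 0.91. With the library set block 7 of 10 were called without set 3 (1.36% of all genes), Nqo1 being the addition at 0.95. The block without the 3′SL library of set 3 alone called 5 of 10 (0.73% of all genes), Hmox1, Gclc, Gclm, Srxn1 and Cat. With the block and without set 1 or set 2, edgeR called 0 of 10, where it called 0.0141% and 0.0208% of all genes. The lowest adjusted p of the members was then 0.118 and 0.0795, and all 10 had an unadjusted p under 0.05.

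**Figure D3:**
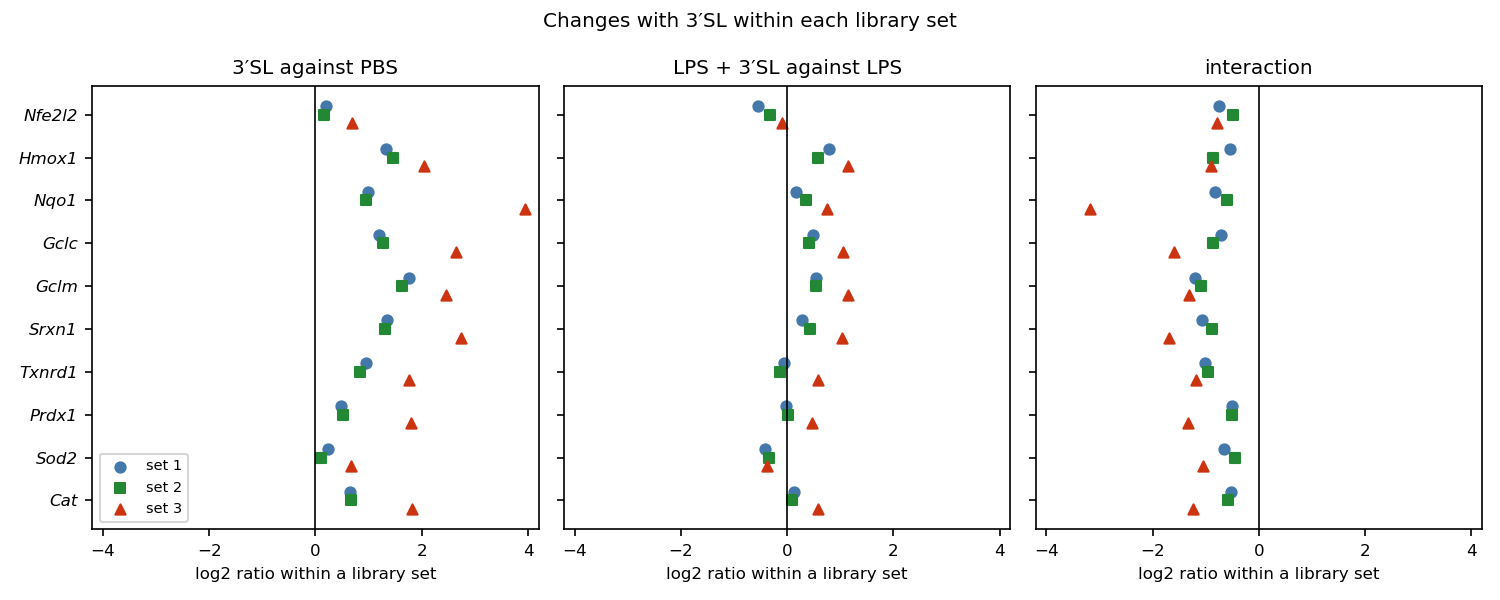
Log2 ratios of CPM within each library set (circle 1, square 2, triangle 3) for 3′SL against PBS, LPS + 3′SL against LPS, and the difference between these (interaction). All 30 points lie above 0 in the first panel and below 0 in the third, and the triangle is the farthest right for all members in the first.

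Under LPS the median 3′SL difference over the members was smaller than without LPS, while Nfe2l2 and Sod2 had differences of similar size and opposite sign. Adding 3′SL to LPS left 8 of the 10 members higher, the median log2 fold change over the 10 being 0.33 beside -0.0079 for all genes, and 6 of 10 were higher in each library set against 21.3% of all genes. For Hmox1, Nqo1, Gclc, Gclm and Srxn1 all 3 libraries lay above, against 6.24% of all genes, and for Nfe2l2 all 3 lay below, against 6.5% of all genes. edgeR called 0 of 10 (0% of all genes), and 1 of 10, Nfe2l2, had an unadjusted p under 0.05, beside 995 of all 14308 genes. DESeq2's Wald test also called 0 of 10, again without a p-value for Nqo1 and Srxn1, where it called 0.79% of all genes. The library set block also called 0 of 10, where it called 1.45% of all genes. There 4 members had an unadjusted p under 0.05 in edgeR, beside 2190 of all 14308 genes. The block's lowest adjusted p among the members was that of Hmox1 at 0.0893.

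The responses to 3′SL with and without LPS were compared by the interaction, which is also the difference between the responses to LPS with and without 3′SL. It was below 0 for all 10 members, from -0.69 (Nfe2l2) to -2.38 (Nqo1), and below 0 in each library set for all 10, against 25.2% of all genes. The medians within sets 1, 2 and 3 were -0.73, -0.73 and -1.27. edgeR called 0 of 10 (0% of all genes), with adjusted p from 0.646 to 0.917. In edgeR 3 members, Nfe2l2, Nqo1 and Cat, had an unadjusted p under 0.05, beside 872 of all 14308 genes. DESeq2's Wald test called 0 (0.308% of all genes) and gave no p-value for Nqo1 and Srxn1. Without the 3′SL library of set 3 the interaction ran from -0.48 to 0.12 with a median of -0.25, 9 of 10 being below 0 and Hmox1 at 0.12. With the library set block 0 of 10 were called, against 1.29% of all genes called below 0. There 9 members had an unadjusted p under 0.05 in edgeR, beside 2473 of all 14308 genes. Sod2 came to an adjusted p of 0.0552 in that fit.

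Without library set 3 the interaction was called for Gclm, Srxn1 and Txnrd1 (3 of 10, 0.264% of all genes called below 0), at -1.12, -0.95 and -0.97. With the block and without set 3 it was called for 6 of 10 (2.13% of all genes), Nfe2l2, Hmox1 and Gclc being the additions at -0.59, -0.69 and -0.76. For Txnrd1 in sets 1 and 2, the levels with 3′SL, with LPS and with both all lay between 483 and 582 CPM. For Gclc the interaction of -1.43 ± 0.81 (edgeR, adjusted p = 0.850) stood beside an LPS difference in the opposite direction to that of 3′SL.

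The wider pathway was followed in 7 lists with 79 genes other than the 10, of which 77 were tested. LPS against PBS called 22 higher (28.6% of the 77, beside 18.3% of all genes) and 10 lower (13.0%, beside 20.2%), with 45 not called, and the median log2 fold change was 0.25. Under total counts the split was 12 higher (15.6% of the 77, beside 10.7% of all genes) and 25 lower (32.5%, beside 46.5%). Among NRF2 regulators and partners 4 of 12 rose and 0 fell, led by Mafk, a small MAF partner of NRF2, at 1.58 ± 0.24. In the glutathione list 4 of 14 rose and 0 fell, led by Slc7a11, the cystine importer, at 3.83 ± 1.13. The thioredoxin and peroxiredoxin list was mixed: 4 of 12 rose, with Prdx5 at 2.10 ± 0.36, and 2 fell, with Txnrd3 at -1.83 ± 0.30. Prdx5 shares 15.5% of its exon words with Trmt112, which overlaps it on the other strand.

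The counts of these short lists stand beside 18.3% of all genes called higher with LPS and 20.2% called lower. Of 10 genes that supply NADPH, the reductant these systems draw on, 1 was called higher (Nadk, NAD kinase, 1.46 ± 0.17). Another 3 were called lower (Idh1 the most, -1.11 ± 0.13). Of 8 haem and iron genes 2 rose, the ferritin heavy chain Fth1 by the most at 0.97 ± 0.30, and 2 fell, the iron exporter Slc40a1 by the most at -3.02 ± 0.27. Among 13 superoxide dismutases and other NRF2 targets 2 rose (Procr 3.21 ± 0.94 the most) and 3 fell (Cbr3 -1.08 ± 0.40 the most). In the list of the phagocyte NADPH oxidase and nitric oxide synthase 5 of 8 rose and 0 fell, with Nos2, the inducible nitric oxide synthase, at 10.52 ± 0.77. Nos2 was counted 19, 18 and 15 times in the PBS libraries and 10286, 13259 and 21782 times in the LPS libraries. The calls of Slc7a11, Fth1, Procr and Cbr3 were lost without the PBS library of set 1 or of set 2, those of Fth1, Procr and Cbr3 without the LPS library of set 3, and that of Cbr3 also without the PBS library of set 3, the LPS library of set 2 or any 1 of the LPS + 3′SL libraries.

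With 3′SL the other pathway genes had a smaller median than the 10 members. 3′SL against PBS called 0 of 77 in edgeR, with a median of 0.26, and DESeq2's Wald test called 2. In edgeR 29 of the 77 had an unadjusted p under 0.05, beside 1439 of all 14308 genes. With the library set block 21 were called, 20 higher (26.0% of the 77, beside 1.98% of all genes) and 1 lower (0.86% of all genes), the glutathione peroxidase Gpx1 at -0.84 ± 0.11. The genes that follow were chosen after their values were seen, as the largest block change of each list. Slc7a11 stood at 3.28 ± 0.53, the peroxiredoxin Prdx6 at 1.42 ± 0.31, the autophagy receptor Sqstm1, which competes with NRF2 for KEAP1, at 1.12 ± 0.27, Slc40a1 at 1.08 ± 0.11 and the pentose phosphate enzyme Pgd at 0.82 ± 0.17. Aox1 was counted only 4, 3 and 11 times in the PBS libraries and 24, 25 and 188 times with 3′SL.

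Slc7a11 was also far higher in the 3′SL library of set 3, at 845, 766 and 12120 counts with 3′SL against 235, 167 and 659 with PBS. Sqstm1 shares 15.5% of its exon words with Mrnip on the other strand. With 3′SL added to LPS edgeR called 0 of 77, DESeq2's Wald test called 1, and the median was 0.05. In edgeR 3 of the 77 had an unadjusted p under 0.05, beside 995 of all 14308 genes. The library set block called 3 of 77 there, Slc40a1 and Sesn2 higher and Nos2 lower, beside 1.45% of all genes in either direction. With that block 13 of the 77 had an unadjusted p under 0.05 in edgeR, beside 2190 of all 14308 genes. Slc40a1 had all 3 libraries with LPS and 3′SL above those with LPS, by 1.30 ± 0.26 (edgeR, adjusted p = 0.153) and 1.26 ± 0.11 with the block (adjusted p = 0.000782). Sesn2, a stress-induced sestrin, was at 0.61 ± 0.13 with the block (edgeR, adjusted p = 0.0334) and had an adjusted p of 0.294 without it. Nos2 was at -1.41 ± 0.50 (adjusted p = 0.528) and -1.53 ± 0.19 with the block (edgeR, adjusted p = 0.00248). The Nos2 libraries of the conditions overlapped, while within sets 1, 2 and 3 the difference was -1.68, -1.80 and -1.17.

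The interaction called 0 of 77 in edgeR and 0 in DESeq2, with a median of -0.29. In edgeR 6 of the 77 had an unadjusted p under 0.05, beside 872 of all 14308 genes. With the block 33 of the 77 had an unadjusted p under 0.05 in edgeR, beside 2473 of all 14308 genes. The block called 4 of 77 below 0 (5.19%, beside 1.29% of all genes). These were Slc7a11 at -3.50 ± 0.68, Nos2 at -2.62 ± 0.44, the glutathione reductase Gsr at -1.18 ± 0.22 and the thioredoxin Txn1 at -0.66 ± 0.14. The genes called with the block in these 2 comparisons are named after their values were seen.

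**Figure D4:**
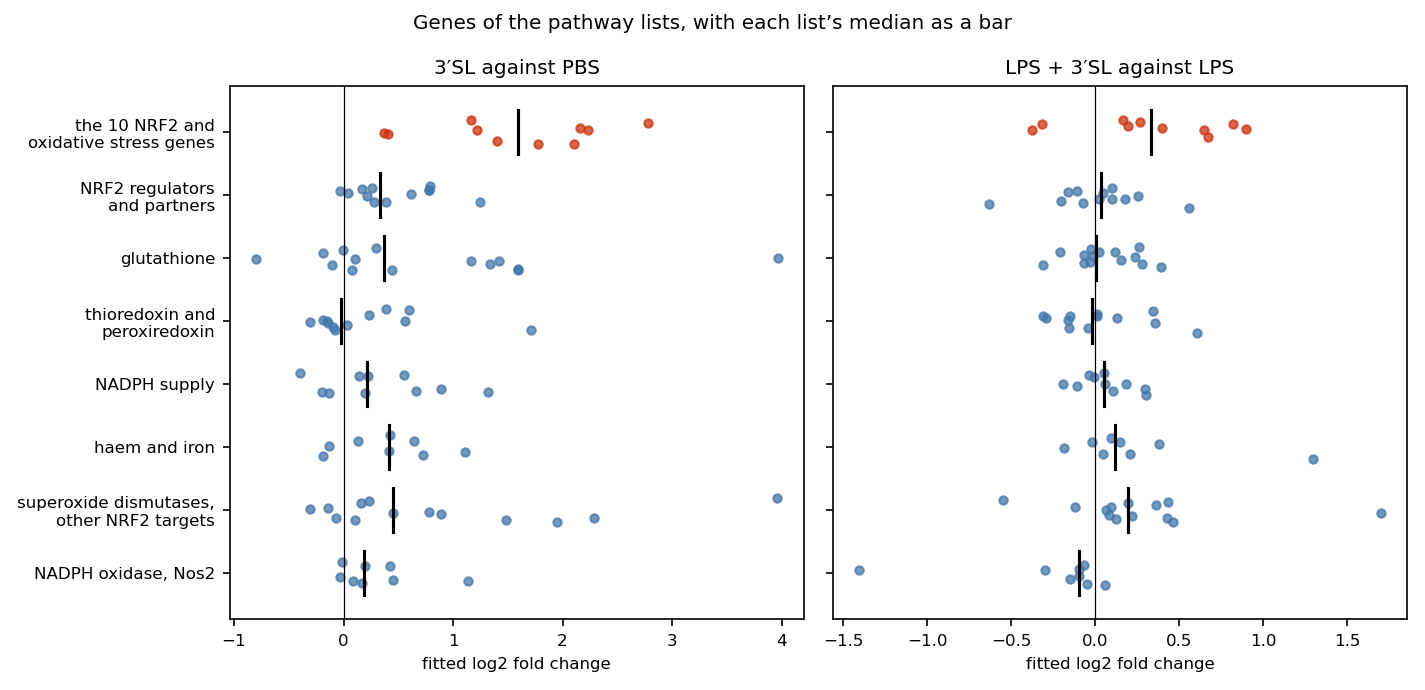
Fitted log2 fold changes of the 10 members (red) and of the tested genes of 7 pathway lists (blue) for 3′SL against PBS and LPS + 3′SL against LPS; 1 point is 1 gene and the bar is the list's median. The members' median is 1.59 on the left and 0.33 on the right, and the lists' medians lie between -0.02 and 0.45 on the left.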

How the data were processed

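The members and gene lists were chosen with earlier results of these data known. The deposited files hold raw counts per gene, 1 file per library. The authors' notes name FastQC, Trimmomatic, STAR, HTSeq and DESeq2; genome build, annotation and the strand setting of the counting are not given in the sources used here. Libraries were stranded and polyA enriched. The labels' treatment field describes mouse injections, so the culture doses were taken from the study's methods. Reads matching no single place (24.8 to 28.5% of reads) were not counted by the authors, which lowers genes with copies.

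Gene identifiers (42462 of 43626 matched) took names, positions and exon lengths from GENCODE M21 (GRCm38), and promoters from RefSeq (GRCm38.p6). Rows that name no gene were left out of library sizes. In edgeR 4.0.16 (R 4.3.3), genes were filtered with filterByExpr by condition, scaled by TMM (factors 0.700 to 1.30) and fitted with 1 mean per condition over all 12 libraries, followed by the quasi-likelihood test and Benjamini-Hochberg adjustment over 14308 genes. SE is the log2 fold change divided by the root of F. The library set block is an alternative fit; the lowest residual correlation between libraries of a set was 0.521, and the biological coefficient of variation was 0.310 without and 0.133 with the block. DESeq2 1.42.0 was another alternative. Named genes were the 10 members, the largest called non-overlapping rise and fall with LPS in each list, and genes called with 3′SL. The fit was tested on simulated counts. No replicate pair of libraries differed by as little as sampling noise (lowest chi-square per gene 14.6). Scalings, filters, single libraries and the conditions fitted were also varied, and alternatives that leave out a library set were chosen after seeing the data.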

Additional observations from a re-analysis of the deposited data

Results flagged for a closer look

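The Nfe2l2 differences with 3′SL had opposite signs without and with LPS, and neither was called. Without LPS all 3 libraries with 3′SL were above those with PBS (log2 fold change 0.37), and with LPS all 3 were below those with LPS alone (-0.32). The interaction was -0.69 ± 0.20 and did not pass the test over all genes (edgeR, adjusted p = 0.646, with the library set block 0.0743). Within library sets 1, 2 and 3 it was -0.74, -0.48 and -0.78. Sod2 also lay above PBS with 3′SL alone and below LPS with both in each library set. Its libraries overlapped in both comparisons.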

How the results depend on the processing

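No paired analysis by replicate number was possible because the labels carry none, and the library set block stands in for it. The share of all tested genes called under the same setting follows in parentheses. DESeq2's Wald test gave no p-value for Nqo1 and Srxn1 in any comparison. LPS against PBS called 2 of 10 members (38.5%). It called 4 with DESeq2's Wald test (39.6%), 4 with only the conditions compared fitted (40.7%), 5 with the library set block (44.6%), 1 without set 2 (24.4%) and 6 without set 3 (38.5%). With the block it called 4 without set 1 (42.2%), 4 without set 2 (39.6%), 6 without set 3 (42%) and 6 without the 3′SL library of set 3 (44.5%), and leaving out single libraries without the block gave 2 to 4 (31.7% to 39.2%). LPS + 3′SL against 3′SL called 4 (29.2%): 7 under total counts (43.4%), 2 with only the conditions compared (27%) and 2 without set 2 (15.1%). 3′SL against PBS called 0 (0%): 3 with DESeq2 (0.615%), 7 with the block (2.84%), 6 without set 3 (0.604%), 7 with the block and without set 3 (2.24%), and 5 with the block and without the 3′SL library of set 3 (0.996%), with 0 called without any single library and no block (0%). 3′SL added to LPS called 0 (0%): 1 (Hmox1) with the block and without set 3 (2.58%), and 2 (Hmox1 and Gclm) with the block and without that library (1.97%). The interaction called 0 (0%): 3 without set 3 (0.306%) and 6 with the block and without set 3 (3.17%). With the block it called 0 without that library (1.16%), the members lying between -0.80 and -0.29 with a median of -0.45, and 0 without set 1 (0.00704%) or set 2 (0%). The causes were not tested.

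Signs turned as follows. For LPS against PBS under total counts, Hmox1 was -0.022, Nqo1 -0.57, Gclm -0.55 and Txnrd1 -0.10. Nqo1 was -0.090 and Gclm -0.025 without set 1, Nqo1 -0.00287 with the block and without set 1, Nqo1 -0.021 and Gclm -0.041 without set 2, and Srxn1 0.21 without set 3 with or without the block. Leaving out single libraries gave Gclm -0.12 to 0.70, Nqo1 -0.11 to 0.21 and Srxn1 -0.44 to 0.28. For LPS + 3′SL against 3′SL, Nfe2l2 was -0.46 and Prdx1 -0.35 under total counts, -0.023 and -0.037 without set 1, and -0.071 and -0.10 without set 2. With the block Nfe2l2 was -0.022 without set 1 and -0.064 without set 2. Without set 3 Hmox1 was 0.32 and Txnrd1 0.013 (0.32 and 0.011 with the block), and with the block but without only the 3′SL library of set 3 they were 0.33 and 0.024. Single libraries gave Nfe2l2 -0.090 to 0.20, Prdx1 -0.20 to 1.08, Hmox1 -0.68 to 0.74 and Txnrd1 -1.02 to 0.25. Txnrd1 for 3′SL added to LPS was -0.089 without set 3 (-0.088 with the block) and -0.095 to 0.31 without single libraries, Prdx1 there -0.11 to 0.36, Sod2 for 3′SL against PBS -0.071 to 0.61 and the Hmox1 interaction -1.45 to 0.12.

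Scaling by DESeq2's size factors, dropping the filter on low counts and dropping the fold minimum kept the number of members called within 1.5 times in all 5 comparisons. Leaving out a library leaves a condition with 2, and leaving out a library set leaves all 4 conditions with 2. Depth limits Nqo1 most, at 32 reads in its lowest library.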
